A study of Mus musculus with 24 samples.

Results

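The acyl-CoA synthetases and thioesterases were followed through Acsl1, Acsl3, Acsl4, Acsl5, Acot1, Acot2 and Acot8, a list of 7 mouse genes. Members were found by gene symbol, current or older, and 6 of the 12422 probe sets tested on the array stood for 5 of the 7 genes, 3 synthetases and 2 thioesterases. Acsl4 had 2 probe sets, of which the brighter represents it below. No probe set was matched to Acsl3, and Acot2 had none of its own: the Acot1 probe set is assigned to both genes in the annotation that accompanied the study, so its signal cannot be divided between them. The probe set of Acsl1 had no symbol in the platform table and was named through that same annotation, which covers genes selected as changed in these livers. That Acsl1 passed a test below is therefore not independent of how it was named. The counts of members called include Acsl1, while the shares over all probe sets carry no such selection. The whole list was also chosen with earlier results of these data known.

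Long-chain acyl-CoA synthetases join a fatty acid to coenzyme A with ATP. The acyl-CoA formed is the substrate of β-oxidation, of triglyceride and phospholipid synthesis and of chain elongation. Acyl-CoA thioesterases hydrolyse the acyl-CoA and release the free fatty acid and CoA. The enzymes sit in different places: Acsl1 and Acsl5 on mitochondrial and endoplasmic reticulum membranes, Acot1 in the cytosol, Acot2 in mitochondria and Acot8 in peroxisomes. PPARα is a nuclear receptor that fatty acids activate, and it is known as a regulator of fatty acid oxidation in hepatocytes. WY-14,643 (WY) is a synthetic agonist of it.

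Whole liver was taken from male PPARα-null and wild-type mice of 9 to 12 weeks on a mixed SV129/C57BL/6 background, 3 mice per group and 1 mouse per array. The null mice carry a disrupted Ppara gene in all tissues. In each strain the groups were WY+HS (WY at 500 ppm in the diet for 7 days, then heat shock), WY alone, HS (control diet, then heat shock) and control (control diet at room temperature). HS was 40 min at 42 °C, and the livers were taken 4 hours afterwards.

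Expression is given as normalized intensity, the probe set signal after quantile normalization over the 24 arrays, in arbitrary units. A floor of 15.7 was set under it before log2 changes were fitted with limma, with adjustment over all 12422 probe sets and a threshold of 0.05. Errors of intensities are SD over 3 mice. The representative probe set of each of the 5 genes lay above the floor on all 24 arrays. Because a probe set's brightness depends on its own sequence, levels were compared between groups and never between genes. In whole liver, fewer cells of a type and less RNA per cell cannot be told apart. Array medians before normalization ran between 15.2 and 40.5. Ppara itself read 103 to 210.2 in null livers and 181 to 357 in wild-type livers, and the lowest wild-type value, of HS mouse 5, lay within the null range. Of 8 hepatocyte markers, 7 were measured and all were above the floor, with sums between 29440.2 and 37671 over the 24 livers.

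All 5 members rose with WY in wild-type livers, the 3 synthetases by log2 0.85 to 1.90 and the 2 thioesterases by log2 1.67 and 4.48. Over all probe sets tested, 5.59% rose in this comparison and the median log2 change was 0, against a median of 1.67 over the 5 members. Acsl1 was named through an annotation of changed genes. Acsl4, Acsl5, Acot1 and Acot8, named by the platform table, all rose. All members were chosen with earlier results of these data known, so their count and median beside those of all probe sets are a description. For every member, all 3 WY livers read above all 3 control livers, a separation that was not counted over all probe sets.

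Acsl1, the main long-chain acyl-CoA synthetase of hepatocytes, read 2420.3, 2237 and 2179 in the wild-type WY livers and 1163, 1251 and 1391 in the wild-type control livers. The groups did not overlap (log2 change 0.85, SE 0.18, limma adjusted p = 0.00459). Its level had the following order over the 8 groups. Wild-type WY (2279 ± 126) and wild-type WY+HS (2152 ± 45.2) stood at the top with overlapping values. Next came wild-type control (1268 ± 115) and, without overlap, wild-type HS (974 ± 113). Null WY+HS (693 ± 79.1), null control (622 ± 150.3) and null WY (619 ± 148) overlapped one another below the wild-type livers, and null HS was lowest (244 ± 50.4), apart from all the rest.

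Acsl5, a synthetase tied to triglyceride formation, read 1728, 1457 and 1761 in the wild-type WY livers and 444, 514 and 375 in the wild-type control livers. The lowest WY value was well above the highest control value (log2 change 1.90, SE 0.18, adjusted p = 1.49e-06). Only the groups of wild-type mice that ate WY stood apart in its order, WY at 1649 ± 167 and WY+HS at 1476 ± 93.6. The remaining 6 group means fell between 560.4 ± 208 in wild-type HS livers and 337 ± 28.2 in null WY+HS livers, and each overlapped its neighbour.

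Acsl4 prefers arachidonic acid and other polyunsaturated fatty acids as substrates. It read 264, 213 and 286 in wild-type WY livers and 91.8, 75.0 and 126 in wild-type control livers, which did not overlap (log2 change 1.40, SE 0.25, adjusted p = 0.000976). Unlike the other 4 members, it was highest in a null group by mean, null HS (336 ± 70.8). Wild-type WY+HS (309.5 ± 67.5), wild-type HS (279 ± 60.6), wild-type WY (254 ± 37.4), null WY+HS (209 ± 55.4) and null control (208 ± 35.7) followed, each overlapping the one before. Null WY (149 ± 29.2) lay below null control without overlap, and wild-type control was lowest (97.6 ± 25.9), overlapping null WY. The second Acsl4 probe set was dim, above the floor on 17 of 24 arrays, and its change with WY did not pass (log2 change 0.47, adjusted p = 0.145). Its highest mean was in wild-type WY+HS livers (38.9 ± 2.34), and null HS livers were at 20.2 ± 3.82, so the order above is that of the brighter probe set.

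Acot1 is the cytosolic thioesterase of long-chain acyl-CoA. Its probe set, assigned also to the mitochondrial Acot2, showed the widest range of the members. This probe set read 3057, 2779 and 2989 in wild-type WY livers and 138, 108 and 154 in wild-type control livers. This is a 22.3-fold higher level (log2 change 4.48, SE 0.17, adjusted p = 1.91e-11). By mean the order was wild-type WY (2942 ± 145) and wild-type WY+HS (2849 ± 252), which overlapped, then null control (197 ± 54.6), null WY (179 ± 5.93), null WY+HS (175 ± 33.0), wild-type control (133 ± 23.6), wild-type HS (103 ± 8.05) and null HS (103 ± 2.23). Each of these last 6 overlapped its neighbour.

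Acot8, a peroxisomal thioesterase of broad chain length, read 431, 463 and 398 in wild-type WY livers and 136, 124 and 145 in wild-type control livers. Its change was log2 1.67 (SE 0.23, adjusted p = 6.82e-05). All 4 wild-type groups lay above all 4 null groups. Within wild-type, WY (431 ± 33.0) overlapped WY+HS (416 ± 15.7), and control (135 ± 10.5) overlapped HS (112 ± 19.7). Among null livers, control (67.8 ± 13.0), WY+HS (63.0 ± 22.8), WY (48.4 ± 4.73) and HS (41.2 ± 11.0) each overlapped the next.

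Markers of other cell types were read beside the WY results too. In wild-type WY livers the hepatocyte sum was 29440.2 to 31135, against 34545 to 35050.1 in controls, and Ttr, Cps1 and Hpx fell. The summed intensity of 5 measured adipocyte markers was 593 to 701 in WY livers and 229.7 to 247 in controls, with rises in Fabp4 and Cidec and with Retn at the floor on all arrays. Of 4 measured intestine markers only Fabp2 rose, with sums of 872 to 1012 in WY livers and 201 to 294 in controls, and Vil1 was at the floor on all arrays. Kupffer cell and macrophage, leukocyte and endothelial sums were 469 to 650.1, 116 to 148 and 136 to 166 in WY livers, against 705 to 900.2, 177 to 232 and 226 to 279 in controls. Of 5 kidney markers Slc34a1 and Slc12a1 rose (log2 change 0.78 and 0.65, limma adjusted p = 0.0185 and 0.049), with sums of 97.5 to 119 in WY livers and 90.6 to 104 in controls and Aqp2 at the floor on all arrays. Skeletal muscle markers, 6 in number, summed to 149 to 165 in WY livers and to 153, 164 and 914 in controls, so that 1 control liver stood apart, none passed, and Mb was at the floor on all arrays. All 5 member rises passed without any 1 of the 6 mice. The part of the other shifts in the member results was not tested.

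**Figure D1:**
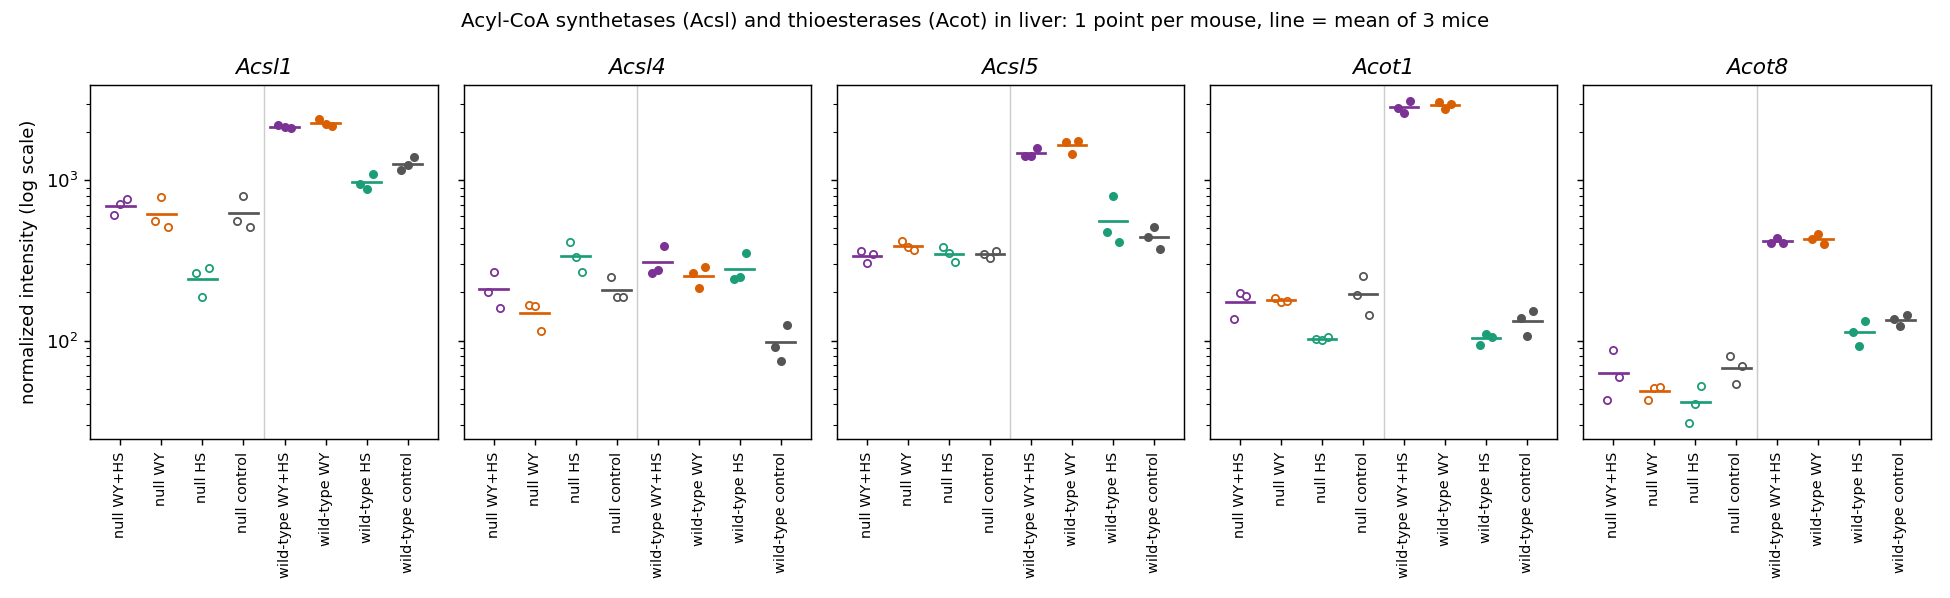
Normalized intensity (vertical axis, log scale) of the representative probe sets of Acsl1, Acsl4, Acsl5, Acot1 and Acot8 in 24 livers, 1 point per mouse, open for PPARα-null and filled for wild-type, with a line at the mean of 3 mice. The Acot1 probe set, assigned also to Acot2, averaged 2942 in wild-type livers on WY and 133 in wild-type controls. No null group mean of this probe set was above 197.

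Sequence upstream of the members was read because all 5 measured members rose with WY in wild-type livers. Windows of 250 bases before annotated starts were taken from RefSeq (GRCm38.p6), 8 windows for the 7 listed genes. The windows of Acsl5, Acsl4 and Acot8 lay inside the annotated bounds of these genes, so the bases before their outermost ends were not read. None held AGGTCA, the hexamer that nuclear receptors such as PPARα bind, on either strand, where 14.0% of 32851 promoter windows of this length did. None held a full direct repeat of this hexamer with 1 base between the copies, found in 0.0335% of windows. None held a heat shock element pair, GAANNTTC or TTCNNGAA, found in 12.8%. A lack of these letters in 250 bases says nothing about binding elsewhere. The 3 windows below belong to Acot1, Acsl5 and Acsl4. The Acot1 probe set, assigned also to Acot2, had the largest rise with WY, so which of the 2 genes rose is not known. Acsl5 was the synthetase with the largest rise, and Acsl4 the member also called after HS in wild-type livers. Each window is written 5′ to 3′ on the gene's strand, and capitals mark the 13 bases closest to the direct repeat on either strand.

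Acot1, chr12:84009252-84009501, plus strand: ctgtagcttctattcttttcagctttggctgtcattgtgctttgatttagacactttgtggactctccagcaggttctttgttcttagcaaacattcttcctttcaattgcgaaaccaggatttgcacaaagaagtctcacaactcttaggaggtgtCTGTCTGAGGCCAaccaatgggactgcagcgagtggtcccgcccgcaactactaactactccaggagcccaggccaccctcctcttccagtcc
Acsl5, chr19:55253119-55253368, plus strand: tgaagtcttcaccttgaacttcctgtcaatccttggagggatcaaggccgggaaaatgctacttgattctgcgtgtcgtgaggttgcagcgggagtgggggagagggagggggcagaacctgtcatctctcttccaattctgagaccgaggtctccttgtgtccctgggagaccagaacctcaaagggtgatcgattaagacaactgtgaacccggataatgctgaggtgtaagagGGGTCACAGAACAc
Acsl4, chrX:142390536-142390785, minus strand: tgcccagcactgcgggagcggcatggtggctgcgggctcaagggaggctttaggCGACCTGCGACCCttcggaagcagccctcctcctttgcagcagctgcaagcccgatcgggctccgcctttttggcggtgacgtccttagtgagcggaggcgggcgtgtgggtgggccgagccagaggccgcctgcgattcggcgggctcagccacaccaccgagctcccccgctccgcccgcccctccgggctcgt

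The capitals differ from the direct repeat at 4 positions in Acot1 and at 3 in Acsl5 and Acsl4. Of all windows, 74.5% came within 4 mismatches and 21.3% within 3.

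In PPARα-null livers none of the 5 members passed the test for WY in either direction, where 0.00805% of all probe sets did. Before adjustment 0 of 5 had a limma p under 0.05, where 429 of all 12422 probe sets did. Acot1 read 186, 174 and 177 in null WY livers and 191, 254 and 145 in null controls (log2 change -0.10, 95% interval -0.46 to 0.26). For Acsl1 the values were 560.3, 787 and 509 in null WY livers, against 559.6, 794 and 514 in null controls. These groups overlapped almost entirely (log2 change -0.01, 95% interval -0.39 to 0.37). Acsl4 read 167, 164 and 115 in null WY livers and 249, 188 and 187 in null controls, all 3 below their controls (log2 change -0.49, adjusted p = 1, p without adjustment 0.064). Acot8 read 43.0, 50.9 and 51.4 in null WY livers and 79.8, 53.9 and 69.8 in null controls, again all 3 below (log2 change -0.47, adjusted p = 1, p without adjustment 0.0516). Acsl5 read 419, 386 and 367 in null WY livers and 345, 328 and 363 in null controls, all 3 above (log2 change 0.18, adjusted p = 1, p without adjustment 0.337).

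The test of the difference between the strains in the WY change, null minus wild-type, passed for 4 of the 5 members, all negative, where 2.94% of all probe sets were called negative. It was largest for Acot1 at log2 -4.58 (SE 0.24, limma adjusted p = 5.55e-09). Acot8 followed with -2.15 (adjusted p = 0.000442), Acsl4 with -1.90 (adjusted p = 0.00291) and Acsl5 with -1.72 (adjusted p = 0.000415). The dim Acsl4 probe set gave -0.62 and did not pass (adjusted p = 0.255). For Acsl1 the difference of -0.86 did not pass (adjusted p = 0.0662), but it passed with array weights (0.0325), with a filter at the 30th percentile (0.0431), without null control mouse 15 (0.0447) and without null WY mouse 20 (0.0191). On the WY diet all 5 members were lower in null than in wild-type livers, by log2 -0.79 for Acsl4 to -4.04 for Acot1, where 6.65% of all probe sets were called lower. The lower Acsl4 level (adjusted p = 0.0455) did not pass when any 1 array other than that of WY mouse 8 was left out, with adjusted p between 0.0554 and 0.205, nor under 5 of 11 other alternatives: common median (0.0611), a floor at the 5th percentile (0.0501), trend and robust moderation (0.0502), only the arrays compared (0.111) and the methods' test (0.27).

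**Figure D2:**
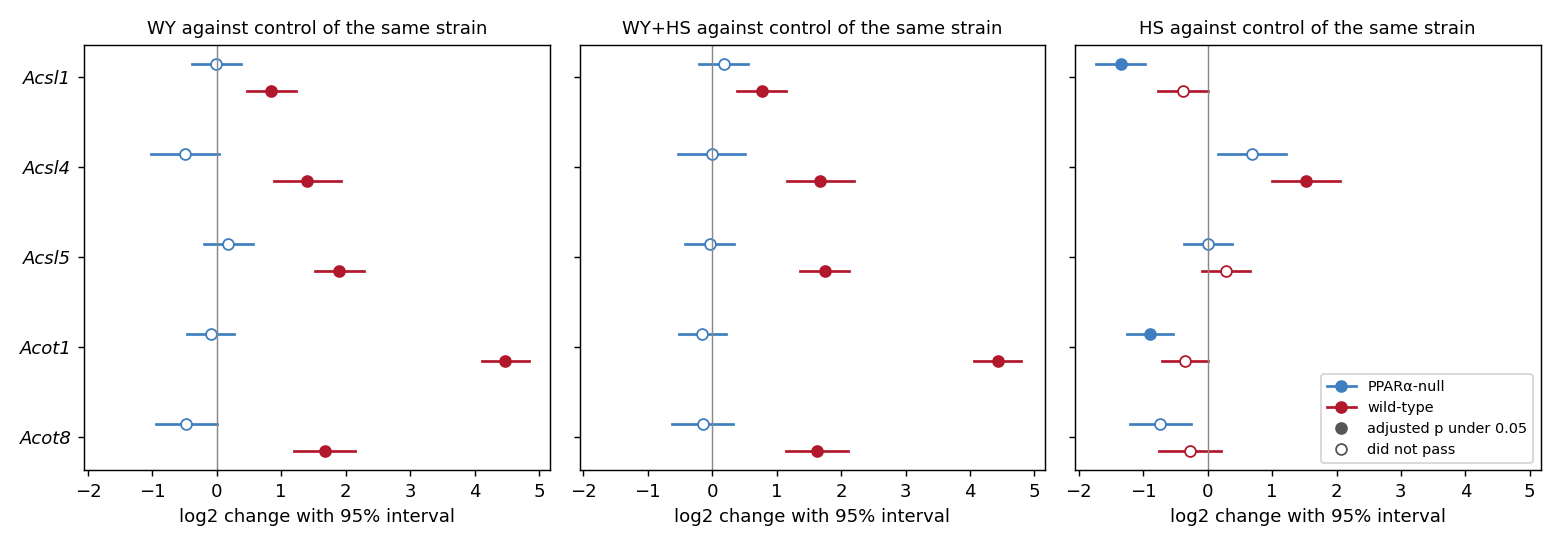
Log2 change against the control group of the same strain, with 95% intervals (horizontal axis), for the 5 measured members (vertical axis) after WY, WY+HS and HS, PPARα-null above wild-type for each gene and filled points for an adjusted p under 0.05. After WY the 5 null changes lie between -0.49 and 0.18 and the 5 wild-type changes between 0.85 and 4.48.

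On the control diet the strains were compared directly. Of the 5 members 3 differed between null and wild-type control livers, 1 higher and 2 lower, where 0.845% of all probe sets were called in either direction. Leaving aside Acsl1, named through the annotation of changed genes, Acsl4 was called higher and Acot8 lower. Acsl1 read 559.6, 794 and 514 in null control livers and 1163, 1251 and 1391 in wild-type control livers (log2 change -1.05, SE 0.18, limma adjusted p = 0.00907). Acot8 was lower as well, at 79.8, 53.9 and 69.8 in null and 136, 124 and 145 in wild-type controls (log2 change -1.01, adjusted p = 0.045). In the opposite direction, Acsl4 read 249, 188 and 187 in null controls and 91.8, 75.0 and 126 in wild-type controls (log2 change 1.11, adjusted p = 0.0444). The dim Acsl4 probe set gave a log2 change of 0.14 with overlapping groups and did not pass. With the mean of probe sets Acsl4 was not called. Endothelial markers summed to 146 to 181 in null controls and 226 to 279 in wild-type controls, none of the 5 passed, and their part was not tested. None of the 3 pairs of groups overlapped, a separation that was not counted over all probe sets. The calls were close to the threshold: Acot8 lost its call without any 1 of the 6 arrays (adjusted p 0.0608 to 0.17), Acsl4 without any 1 but that of wild-type mouse 3 (0.0709 to 0.175) and Acsl1 without that mouse (0.0508).

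WY followed by HS gave wild-type livers a pattern close to that of WY alone. Against control, all 5 members rose with WY+HS, by log2 0.77 for Acsl1 to 4.43 for Acot1, where 5.23% of all probe sets rose. Acot1 read 2823, 2610.4 and 3113 in wild-type WY+HS livers, and Acsl5 read 1425, 1420.2 and 1584. Compared with WY alone, none of the 5 passed in either direction after WY+HS, where 0.427% of all probe sets did (limma). Their log2 changes were between -0.16 for Acsl5 and 0.27 for Acsl4. Before adjustment 0 of 5 were under 0.05, where 1023 of all 12422 probe sets were. The dim Acsl4 probe set passed in this setting alone among the treatments, rising with WY+HS against control (log2 change 1.15, adjusted p = 0.000406), at 38.1, 37.1 and 41.6 in WY+HS livers and 15.7, 15.7 and 21.8 in control livers.

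After HS alone in wild-type livers, Acsl4 was the only member called, and it rose. Only 0.0322% of all probe sets rose in this comparison. It read 241, 248 and 349 in wild-type HS livers and 91.8, 75.0 and 126 in wild-type control livers, without overlap (log2 change 1.53, SE 0.25, limma adjusted p = 0.0404). The call was lost without control mouse 1 or 2 or HS mouse 4 or 6 (adjusted p 0.121, 0.164, 0.0716 and 0.149), and its dim probe set gave a log2 change of 0.19 (adjusted p = 1). Without HS mouse 5, whose Ppara value was low, the change was 1.60 (adjusted p = 0.0411).

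The other members gave smaller differences after HS in wild-type livers. Acsl1 read 940.5, 881 and 1100.0 in HS livers, all below the controls (log2 change -0.38, adjusted p = 0.866, p without adjustment 0.0492). Acot1 and Acot8 had log2 changes of -0.36 and -0.27 (adjusted p = 0.866 and 1). Acsl5 was uneven, at 475, 797 and 409.5 in HS mice 4, 5 and 6, so that mouse 5 read above all controls while the other HS mice overlapped them.

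HS in PPARα-null livers lowered 2 of the 5 members, the synthetase Acsl1 and the thioesterase Acot1, where 3.89% of all probe sets fell. Acsl1 was named through the annotation of changed genes, and Acot1 was the only other member called. Acsl1 read 263, 186 and 282 in null HS livers and 559.6, 794 and 514 in null control livers (log2 change -1.35, SE 0.18, limma adjusted p = 0.000236). Every HS liver was below every control. Acot1 read 103, 101 and 105 in null HS livers, a narrow range, and 191, 254 and 145 in null controls (log2 change -0.90, adjusted p = 0.00406), again without overlap. With only the arrays compared in the fit, neither passed (adjusted p = 0.162 for Acsl1 and 0.22 for Acot1), and without scaling Acot1 did not (0.288). Acot8, at 30.6, 40.5 and 52.5 in null HS livers and 79.8, 53.9 and 69.8 in null controls, did not pass (log2 change -0.74, adjusted p = 0.0594) but passed without null HS mouse 18 (adjusted p = 0.0194).

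Acsl4 and Acsl5 did not fall in null livers after HS. Acsl4 read 409.5, 330.4 and 268 in null HS livers and 249, 188 and 187 in null controls, all 3 above their controls (log2 change 0.68, adjusted p = 0.12). The dim Acsl4 probe set gave a log2 change of 0.04 with overlapping groups. Acsl5 had a log2 change of 0.01 (95% interval -0.37 to 0.38). Non-hepatocyte markers moved in the same comparison. The summed intensity of 6 stellate and fibroblast markers was 576 to 714 in null HS livers and 374 to 423 in null controls, and 4 of the 6 rose. Of 6 leukocyte markers S100a8 and S100a9 rose, with Ptprc and Cd3e at the floor on all arrays, and the list summed to 239.8 to 306 in null HS livers and 197 to 293 in null controls. Endothelial markers, 5 in number, summed to 237 to 243 in null HS livers and 146 to 181 in null controls, and Cdh5 and Vwf rose. Skeletal muscle sums were 132, 698 and 771 in null HS livers, lowest to highest, and 123 to 186 in null controls, so that 2 of 3 null HS livers stood above all controls by a wide margin, and no marker passed. Of 5 measured adipocyte markers only Fabp4 rose, with overlapping sums of 268 to 305 in null HS livers and 223 to 297 in null controls. The 4 measured adrenal markers summed to 380.4 to 564 in null HS livers and 230.3 to 363 in null controls. None of the adrenal markers passed, and Hsd3b1 was at the floor on all arrays. The part of these markers in the falls of Acsl1 and Acot1 was not tested. The hepatocyte marker sum was 33729.6 to 36017 in null HS livers and 35065 to 35465 in null controls, and none of the 7 passed.

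The strains were then set against each other for HS. No member passed the limma test of the difference in HS change, null minus wild-type, where 1.62% of all probe sets did in either direction. Before adjustment 3 of 5 members were under 0.05, as were 1574 of all 12422 probe sets. All 5 differences were negative, -0.97 for Acsl1 (adjusted p = 0.0724), -0.84 for Acsl4 (0.289), -0.54 for Acot1 (0.344), -0.46 for Acot8 (0.689) and -0.28 for Acsl5 (0.85). The fall of Acsl1 and Acot1 in null livers was therefore not shown to differ from the wild-type change. For Acsl1 the difference passed without null control mouse 15 or null HS mouse 18 (adjusted p = 0.0398 and 0.0298).

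In null livers that had eaten WY, the effect of HS was different for Acsl1. Set against WY alone, HS after WY gave a log2 change of 0.18 in null livers, where the values were 608, 706 and 765 after WY+HS and 560.3, 787 and 509 after WY. The change with HS on the WY diet minus that on the control diet was 1.53 (SE 0.26, limma adjusted p = 0.0052), the only call among the 5 members, where 1.16% of all probe sets were called positive. It did not pass without scaling (adjusted p = 0.27) or with only the arrays compared (0.117). Acot8 (1.06, adjusted p = 0.115) and Acot1 (0.84, adjusted p = 0.0962) had positive differences that did not pass. Both passed without null WY+HS mouse 22 (adjusted p = 0.0301 and 0.0337), Acot1 also without null control mouse 15 (0.018) and Acot8 also without null HS mouse 18 (0.0339). S100a8 and S100a9 passed the same test with negative differences, and their part was not tested. None of the 5 members passed for WY+HS against control in null livers, where 0.0161% of all probe sets did, nor for WY+HS against WY, where 0.0242% did (limma). Before adjustment 0 of 5 were under 0.05 in both, where 610 and 657 of all 12422 probe sets were. In wild-type livers no member passed the same limma test between diets, where 0.105% of all probe sets did, and the most negative difference was that of Acsl4 (-1.26, adjusted p = 0.35). Before adjustment 1 of 5 was under 0.05 in wild-type livers, as were 794 of all 12422 probe sets.

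Activating and hydrolysing enzymes were compared as the mean log2 difference from the wild-type control mean, over Acsl1, Acsl4 and Acsl5 on one side and Acot1 and Acot8 on the other. This is a description without a test. In wild-type WY livers the synthetases averaged 1.38 ± 0.13 and the thioesterases 3.08 ± 0.04 (SD over 3 mice), and activating minus hydrolysing was -1.69 ± 0.14. WY+HS gave -1.63 ± 0.08 in wild-type livers. After HS alone the sign was the other way, with synthetases at 0.48 ± 0.12, thioesterases at -0.32 ± 0.13 and a difference of 0.79 ± 0.16 in wild-type livers.

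Null livers had a difference of 0.33 ± 0.34 after WY+HS, 0.31 ± 0.23 after WY, 0.73 ± 0.35 after HS and 0.14 ± 0.07 in controls. With all 5 members, the 12 null livers were between 0.05 and 1.13. The thioesterases averaged -1.05 ± 0.20 in null HS livers, the lowest of the 8 groups. Both the size and, in null livers, the sign of these differences depend on single genes. Without Acsl4 all 4 null groups were negative, at -0.25 after WY+HS, -0.10 after WY, -0.32 after HS and -0.47 in controls. Without Acot8 the null groups were at -0.44, -0.65, 0.040 and -0.64 in that order, and with the mean of probe sets null controls were at -0.024. In wild-type livers the WY value was -0.29 without Acot1 and -3.09 without Acot8, and the HS value was 0.27 without Acsl4.

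**Figure D3:**
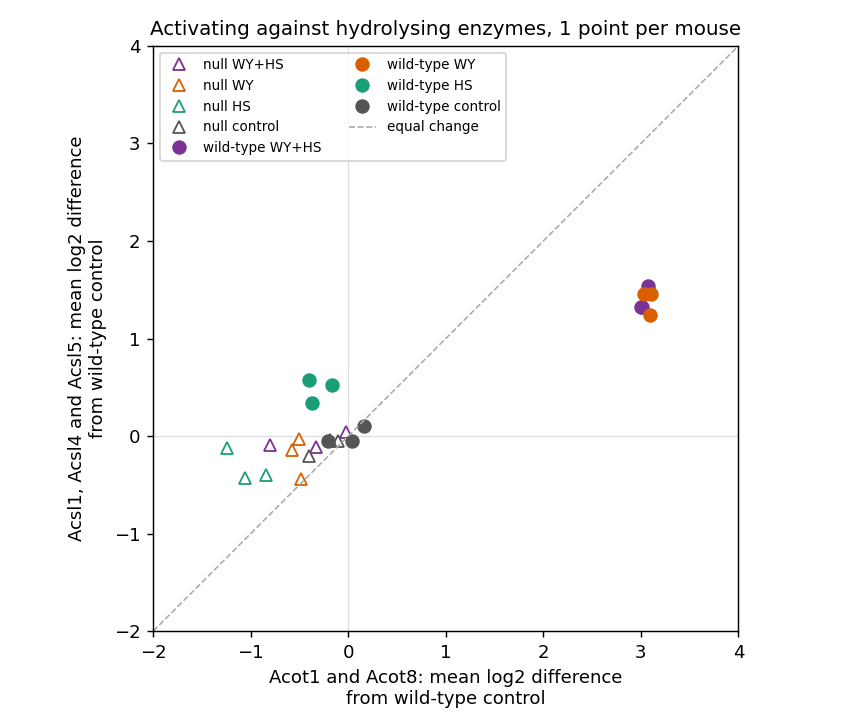
Mean log2 difference from the wild-type control mean of the synthetases Acsl1, Acsl4 and Acsl5 (vertical axis) against that of the thioesterases Acot1 and Acot8 (horizontal axis), 1 point per mouse, triangles for PPARα-null and circles for wild-type, with a dashed line at equal change. The 6 wild-type livers on WY, with or without HS, lie near 3 on the horizontal axis and below the line, and the wild-type HS livers lie above it.

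The genes around these enzymes were taken from lists of other synthetases, other thioesterases, proteins that take up acyl-CoA and CoA supply. Among other acyl-CoA synthetases, 9 of 20 listed were measured, and with WY in wild-type livers 4 rose and 1 fell, with a median log2 change of 0.79, where 5.59% of all probe sets rose and 5.19% fell. Acsf3, a mitochondrial malonyl-CoA synthetase, averaged 157 ± 33.3 in WY livers and 39.4 ± 29.7 in wild-type controls, where 1 of 3 lay at the floor (log2 change 2.26, limma adjusted p = 0.0469). Slc27a1, a fatty acid transport protein with synthetase activity, averaged 646 ± 47.4 in WY livers and 154 ± 66.7 in controls (log2 change 2.15, adjusted p = 0.00113). Its relative Slc27a4 rose too (log2 change 1.02, adjusted p = 0.00877). Slc27a5, which activates bile acids, fell to 1185 ± 159.9 in WY livers, against 2045 ± 94.8 in controls (log2 change -0.79, adjusted p = 0.000775).

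Among other thioesterases 6 of 16 listed were measured, and with WY in wild-type livers 1 rose and 1 fell, too few genes to set against the 5.59% and 5.19% over all probe sets. Acot13, a thioesterase of mitochondria and cytosol, averaged 447 ± 25.6 in WY livers and 263 ± 31.5 in controls (log2 change 0.77, adjusted p = 0.00126). Baat, which joins bile acids to amino acids and belongs to the same protein family as Acot1, averaged 344 ± 25.6 in WY livers and 517 ± 10.7 in controls (log2 change -0.59, adjusted p = 0.00933). After WY+HS, Acot7 rose with Acot13 (log2 change 1.74, adjusted p = 0.0366) and Baat did not pass.

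Of 17 enzymes and carriers that take acyl-CoA, 10 were measured, and with WY in wild-type livers 6 rose and none fell, with a median log2 change of 0.70, beside the same 5.59% and 5.19%. Crat, which moves acetyl groups between CoA and carnitine, averaged 656 ± 10.9 in WY livers and 23.1 ± 12.8 in wild-type controls, where 2 of 3 lay at the floor, so its log2 change of 4.96 is limited by the floor (adjusted p = 1.49e-06). Elovl5, which elongates polyunsaturated acyl-CoA, averaged 3934 ± 355 in WY livers and 1095 ± 131 in controls (log2 change 1.85, adjusted p = 2.35e-06). Dbi, the acyl-CoA binding protein, averaged 5903 ± 250.1 in WY livers and 2509 ± 523 in controls (log2 change 1.25, adjusted p = 2.99e-05). In null livers none of the 10 passed for WY, where only 0.00805% of all probe sets did. The difference between the strains in the WY change, null minus wild-type, passed for 4 of 10, all negative, where 2.94% of all probe sets were called negative.

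Of 13 genes of CoA supply and breakdown, 5 were measured, and 4 rose with WY in wild-type livers, where 5.59% of all probe sets did. Vnn1, a pantetheinase that frees the CoA precursor pantothenate, averaged 1994 ± 251 in WY livers and 122 ± 23.4 in controls (log2 change 4.04, adjusted p = 7.42e-07). Its relative Vnn3 (1.86, adjusted p = 0.0301) and Coasy, which makes the last steps of CoA synthesis (0.74, adjusted p = 0.00706), rose as well. None of the 5 passed for WY in null livers, where only 0.00805% of all probe sets did. After HS no gene of the 4 lists was called in wild-type livers, where 4 of all 12422 probe sets were called up and 1 down. Log2 changes in these lists ran from -1.10 for Acot7 to 1.01 for Elovl6, so the genes were not shown to be unchanged. In null livers HS lowered Fabp1, a fatty acid carrier (log2 change -0.41, adjusted p = 0.0373), and Slc25a17, a peroxisomal carrier of CoA (-0.35, adjusted p = 0.0333). Over all probe sets 3.89% fell in this comparison, and these calls are too few to set the lists apart from that share. Acss1, an acetyl-CoA synthetase, passed upward (0.56, adjusted p = 0.0457) with 1 of 3 null HS livers and 2 of 3 null control livers at the floor, where 3.18% of all probe sets rose.

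**Figure D4:**
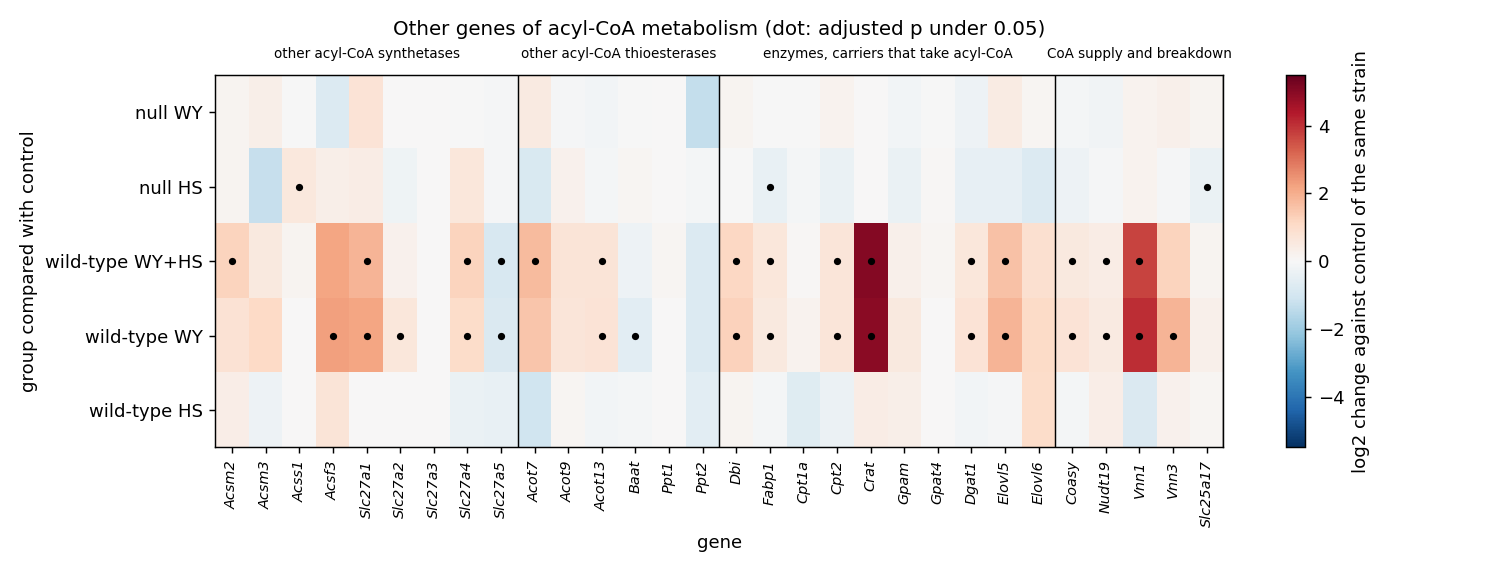
Log2 change against the control group of the same strain (colour) for 30 measured genes of acyl-CoA metabolism (horizontal axis) in 5 treated groups (vertical axis), with a dot where the adjusted p was under 0.05. Crat reaches 4.96 and Vnn1 4.04 in wild-type WY livers. No gene has a dot in null WY livers, where only 0.00805% of all probe sets were called.

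Across the 8 group means, on the log2 scale, the genes closest to each member were sought among 2436 genes whose means spanned at least 1. Each correlation below has 8 points that share the same arrays and the same WY contrast, and is a description. Acsl5 was closest to Dbi (r = 0.999), the acyl-CoA binding protein, and next to Mpp1 (0.991). Acot1 was closest to Cmas (0.990) and Acadm (0.990), Acadm being the medium-chain acyl-CoA dehydrogenase of β-oxidation. Acot8 was closest to Hsdl2 (0.997) and Dhrs4 (0.995), and Acsl1 to Tysnd1 (0.991), a peroxisomal protease, and Fam136a (0.989). Acsl4 had no neighbour as close, with Snrpc at 0.959 and Zfp30 at 0.901. Between members, Acsl5 and Acot8 were the closest over the group means (0.952), while Acsl4 was at -0.09 to Acsl1 and at 0.17 to 0.35 to the others. With the group means removed, Acsl5 and Acot8 were at -0.60 over the mice, so the 0.952 describes group means only.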

How the data were processed

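RNA of whole liver from 24 mice was hybridised to Affymetrix U74Av2 arrays, 1 mouse per array, and the deposited values are signal intensity per probe set on a linear scale, made by the authors, who read images with GeneChip Operating Software and analysed them in Rosetta Resolver. How probe signals were summarised was not stated. Of 12488 probe sets, 66 had no value and 12422 were tested. Intensities were quantile normalized, set to a floor of 15.7 (the size of the 10th percentile, which is negative) and taken to log2, with 42.9% of values at the floor. A mean per group was fitted to all 24 arrays with limma 3.58.1 in R 4.3.3 (16 residual degrees of freedom), with Benjamini-Hochberg adjustment over all probe sets at 0.05. P-values rest on a single spread per probe set, pooled over the mice within all 8 groups and moderated, and not on the compared groups alone. Array signals carry no read depth, so the number of arrays limits the precision. The script was tested on simulated data.

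Groups came from the sample labels. Members were all probe sets with a listed symbol, and the brightest represented a gene. Of other lists, at most 3 genes per comparison and direction were named, those with the largest changes past the threshold, and for each member the 2 genes with the most similar group means. The members and lists were chosen with earlier results of these data known. Alternatives changed the scaling, the floor, the filter, the moderation of variances, array weights, the test (the methods' F test over the groups with Scheffe's test), the arrays in the fit and the choice of probe set, and left out each mouse.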

Additional observations from a re-analysis of the deposited data

Results flagged for a closer look

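The WY change differed between the strains, by the limma test of the difference itself (null minus wild-type), for 4 members. The difference was -4.58 on the log2 scale for Acot1 (adjusted p = 5.55e-09), -2.15 for Acot8 (adjusted p = 0.000442), -1.90 for Acsl4 (adjusted p = 0.00291) and -1.72 for Acsl5 (adjusted p = 0.000415). In each case the null change did not pass. For each, all 3 wild-type WY livers read above all 3 wild-type controls, a separation that was not counted over all probe sets. These values are of the representative probe sets, and the dim Acsl4 probe set did not pass (-0.62, limma adjusted p = 0.255).

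For Acsl1 the HS change in null livers differed between the diets, by 1.53 on the log2 scale on WY minus on control diet (limma adjusted p = 0.0052).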

How the results depend on the processing

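For the 26 member changes past the threshold, 472 values under alternatives held 0 reversals, 423 stayed past the threshold and 49 lost the call, 21 of them among 186 that left out 1 mouse. Leaving out mice aside, only Acsl1 among the members lost its rise in wild-type livers on WY: with WY at a common median (limma adjusted p = 0.0558, range over its alternatives 0.000827 to 0.0558), and with WY+HS without scaling (0.427) and by the methods' test (0.0602, range 0.00571 to 0.427). No rise with WY or WY+HS was lost without 1 mouse. Counts of members called moved as follows, and the cause was not tested. HS in wild-type livers had 0 at a common median, with trend and robust moderation, with only the arrays compared and with the mean of probe sets, and 0 to 1 without 1 mouse. Null against wild-type control livers had 1 at a common median and with trend and robust moderation, 0 without scaling and with only the arrays compared, and 1 to 2 without 1 mouse. HS in null livers had 1 without scaling, 0 with only the arrays compared, and 3 (Acot8 added) with array weights and with a filter at the 30th percentile (limma adjusted p of Acot8 0.0098 and 0.0398). The difference in HS change between the strains had 1 (Acsl1) with array weights and with a filter at the 30th percentile, and 0 to 1 without 1 mouse. Between diets, it had 2 (Acsl4 and Acsl5) in wild-type livers without scaling, and in null livers 2 at a common median and with array weights, 0 without scaling and with only the arrays compared, and 1 to 3 without 1 mouse.

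Activating minus hydrolysing depended on single genes. With the mean of probe sets it was -1.85 after WY, -1.72 after WY+HS and 0.57 after HS in wild-type livers, and -0.024 in null controls. Without Acsl1 it was -1.42, -1.32 and 1.22 in these wild-type groups, and 0.74 after WY+HS, 0.74 after WY, 1.77 after HS and 0.61 in controls in null livers. Without Acsl4 it was -1.77 after WY+HS and 0.27 after HS in wild-type livers, and -0.25, -0.10, -0.32 and -0.47 in the null groups in that order. Without Acsl5 it was -1.95 after WY and -1.81 after WY+HS in wild-type livers and 0.27 in null controls. Without Acot1 it was -0.29 and -0.23 in wild-type WY and WY+HS livers, and 1.10, 1.27, 1.43 and 0.91 in the null groups. Without Acot8 it was -3.09 and -3.03 in those wild-type groups, and -0.44, -0.65, 0.040 and -0.64 in the null groups.

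No paired analysis was possible because the labels give no number or litter that links mice across groups. Signal near the floor limits the dim Acsl4 probe set, Crat, Acsf3, Acss1, Ppt1 and Gpat4, and Slc27a3 was at the floor on all arrays.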
